A study of Mus musculus with 8 samples.

Results

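A set of 10 genes of hepatic insulin signalling and of the FOXO1 programme was followed in mouse liver after deletion of the nuclear receptor corepressor NCOR. They were the receptor and adaptor genes Insr, Irs1 and Irs2, the transcription factor genes Foxo1 and Foxo3, the coactivator gene Ppargc1a, the binding protein genes Igfbp1 and Igfbp2, and the Tribbles genes Trib1 and Trib3. These 10 of the 22180 genes tested were chosen by symbol and not by their values here, although earlier results of the same data were known. For each one the brightest probe set assigned to that gene alone was used.

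The study compared 4 NCOR KO livers with 4 WT livers on 1-colour Affymetrix Mouse Gene 2.0 arrays. The KO mice received adeno-associated virus (AAV) carrying Cre recombinase by intravenous injection, and the WT mice received AAV carrying GFP. In the labels the controls are wild-type, but the design text has NCOR floxed mice receiving either virus. All mice were 3 months old, ate normal chow, and were killed 2 weeks after injection at ZT10, late in the light phase. Feeding state, blood glucose and insulin are not given in the sources used here. Cre and loss of NCOR came together in every KO liver and cannot be told apart.

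Insulin binds its receptor on the hepatocyte, the receptor phosphorylates the adaptors IRS1 and IRS2, and these switch on phosphoinositide 3-kinase and the kinase AKT. AKT phosphorylates FOXO1 and keeps it out of the nucleus, so genes that FOXO1 drives are low after a meal and high in fasting. Igfbp1 is a classical example: its product, a secreted protein that binds insulin-like growth factors, is held down by insulin through an insulin response element in the promoter. Nuclear receptors bring the corepressor NCOR to their target genes, where it works with the deacetylase HDAC3.

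The Igfbp1 promoter is shown because Igfbp1 was the gene of the 10 that rose. The 250 bases before its start site lie at chr11:7197537-7197786 on the plus strand (RefSeq, GRCm38.p6), with the core of the insulin response element in capitals, which is TGTTTTG on the opposite strand.
Igfbp1: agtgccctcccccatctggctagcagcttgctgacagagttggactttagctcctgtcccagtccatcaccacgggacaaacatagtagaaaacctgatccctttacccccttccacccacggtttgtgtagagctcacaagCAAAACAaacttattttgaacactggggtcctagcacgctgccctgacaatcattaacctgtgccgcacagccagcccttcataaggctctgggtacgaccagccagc

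A pair of 7-letter motifs was searched on both strands from 250 bases before to 50 bases after the start: TGTTTAC, the FOXO core site, and TGTTTTG, the core of the insulin response element. They share their first 5 letters, so 1 stretch of bases cannot match both, but a promoter can hold both. Only these exact letters were searched, so a promoter without TGTTTAC, that of Igfbp1 included, was not shown to lack a FOXO site. TGTTTAC was in 3.65% and TGTTTTG in 6.28% of 32851 mouse promoters. Of the 10 genes, 8 had a promoter in the table, and 3 of these 8 held a motif, TGTTTTG in each case. The match in Igfbp1 lay at -108 to -102. Irs1 and Irs2, the adaptor genes, held it on the gene's own strand, shown here with 10 bases on each side and the motif in capitals, on chromosome 1 at 82291534 to 82291560 and 82291455 to 82291481 (Irs1) and on chromosome 8 at 11008950 to 11008976 (Irs2), minus strand.
Irs1, -111 to -105: ctccgtcacgTGTTTTGctcctctgga
Irs1, -32 to -26: agccgccgctTGTTTTGgttggggctc
Irs2, -37 to -31: agtcacgtgtTGTTTTGctcttagttc
Of these 3 genes with the same letters in their promoters, Igfbp1 alone passed the test of change.

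Igfbp1 rose in NCOR KO liver. Its log2 intensity was 11.59, 11.43, 11.73 and 11.64 in KO replicates 1 to 4, against 10.86, 11.17, 11.00 and 10.64 in WT replicates 1 to 4. The 4 KO livers all lay above the 4 WT livers. The KO mean was 11.60 ± 0.13 and the WT mean 10.92 ± 0.22 (SD, n = 4 each), a log2 change of 0.68 ± 0.11 (SE), or 1.60-fold with a 95% interval of 1.36 to 1.89. The limma adjusted p, corrected over all 22180 genes, was 0.0146. The labels call the replicates biological but tie no array to an animal, so this p measures the spread between these samples.

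Igfbp1 was the single gene of the 10 past the adjusted threshold of 0.05, that is 1 that rose, 0 that fell and 9 that did not pass. Over all genes 1.65% passed, made up of 0.816% higher and 0.834% lower in KO liver. Complete separation of the groups was likewise seen for Igfbp1 alone, against 10.4% of all genes, made up of 4.9% with KO above WT and 5.49% with KO below WT. At an unadjusted p under 0.05 there were 2 of 10, Igfbp1 and Irs2, where 15.9% of all genes (3528 of 22180) lay under that value. The median log2 change of the 10 genes was -0.04, with 4 above and 6 below 0, and that of all genes was 0.01.

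**Figure D1:**
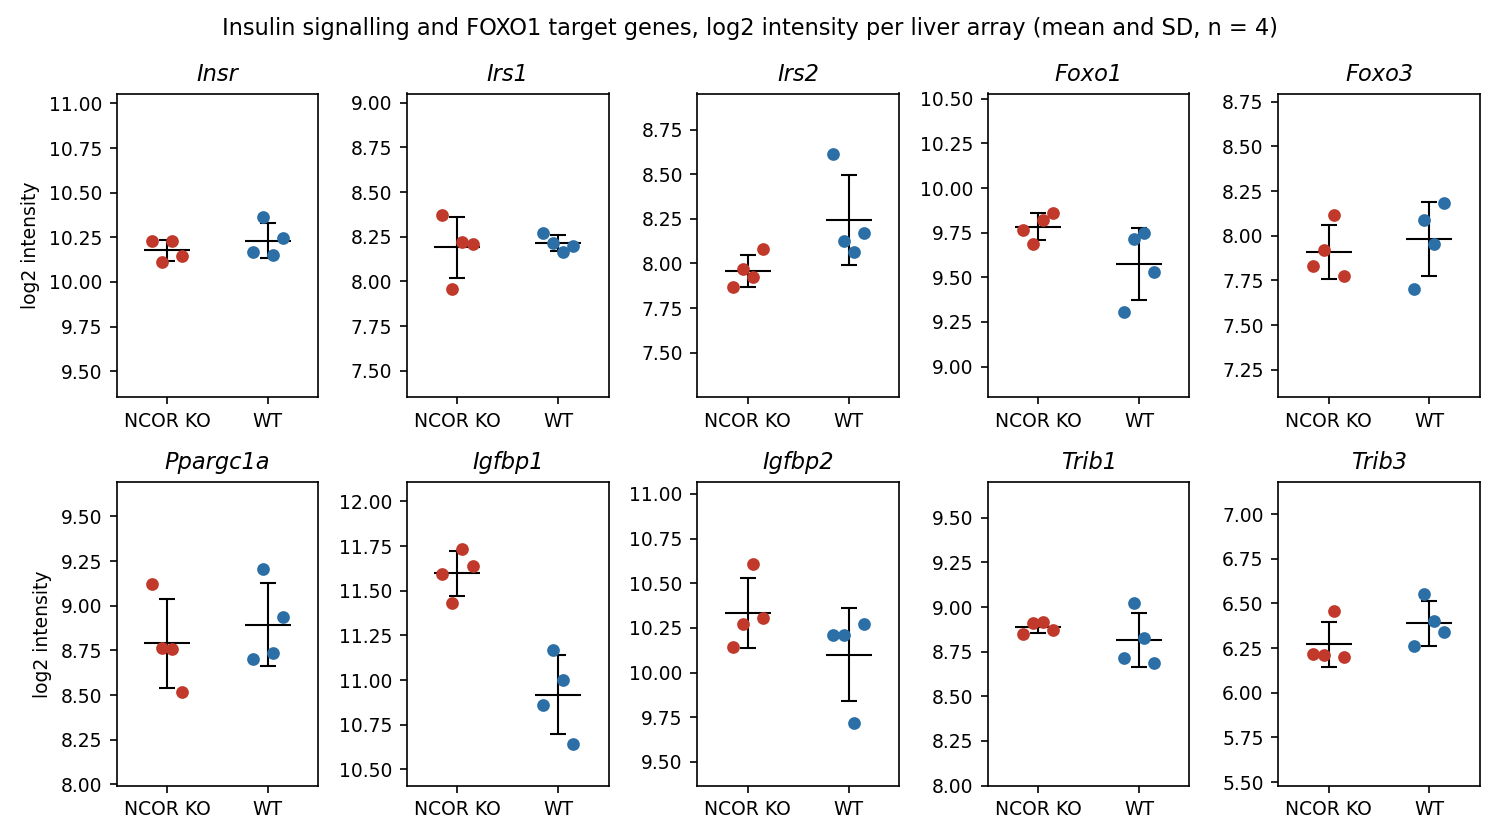
Log2 intensity of each of the 10 genes in 4 NCOR KO and 4 WT livers. Each point is 1 array, horizontal bars are group means with SD (n = 4), and every panel spans the same log2 range. The KO points of Igfbp1 (11.43 to 11.73) all lie above its WT points (10.64 to 11.17), while the groups overlap in the other panels.

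Insr encodes the insulin receptor. Its log2 intensity was 10.23, 10.11, 10.23 and 10.15 in KO livers, against 10.17, 10.36, 10.15 and 10.25 in WT livers. The groups overlapped. The receptor gene had a log2 change of -0.05 ± 0.07 (SE; limma adjusted p = 0.734), with a 95% interval of -0.20 to 0.09.

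Irs1, an adaptor between the receptor and phosphoinositide 3-kinase, measured 8.37, 7.96, 8.22 and 8.21 in KO livers, against 8.27, 8.22, 8.17 and 8.20 in WT livers. The KO values lay on both sides of the narrow WT range, and their SD was 0.17 against 0.05 in WT. The change was -0.02 ± 0.08 (SE, log2; limma adjusted p = 0.921). A second probe set assigned to Irs1 was dim and changed by 0.02 (log2; limma adjusted p = 0.939 with every probe set tested singly).

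Irs2, the adaptor that FOXO1 itself is known to induce in fasted liver, measured 7.87, 7.97, 7.92 and 8.08 in KO livers, against 8.61, 8.13, 8.06 and 8.17 in WT livers. KO replicates 1 to 3 were below every WT value, KO replicate 4 lay above WT replicate 3, and WT replicate 1 stood well above the rest. The log2 change was -0.28 ± 0.11 (SE) with a 95% interval of -0.53 to -0.03, and it did not pass after correction (limma adjusted p = 0.253, unadjusted p = 0.0296). Without WT replicate 1 the change was -0.16. A further probe set shared between Irs2 and a neighbouring transcript, and so not used, averaged 6.12 in both groups.

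Foxo1 encodes the transcription factor that AKT keeps out of the nucleus. It measured 9.77, 9.69, 9.82 and 9.86 in KO livers, against 9.31, 9.71, 9.75 and 9.53 in WT livers. The KO values lay between 9.69 and 9.86, and the WT range reached further down. For Foxo1 the log2 change was 0.21 ± 0.10 (SE; limma adjusted p = 0.318), with a 95% interval of -0.0026 to 0.42. Without WT replicate 1 it was 0.12. A second, dimmer probe set of Foxo1 changed by 0.05 (limma adjusted p = 0.806 with every probe set tested singly), and the mean of both gave 0.13. The array reports transcript level, and the phosphorylation and location of FOXO1 protein were not measured.

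Foxo3, a second FOXO factor with overlapping targets, ranged from 7.78 to 8.12 in KO livers and from 7.70 to 8.18 in WT livers. The KO range lay wholly inside the WT range, and the log2 change was -0.07 ± 0.11 (SE; limma adjusted p = 0.796).

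Ppargc1a encodes PGC-1α, a coactivator that rises with glucagon in fasting and works with FOXO1 and HNF4α on gluconeogenic genes. It measured 9.12, 8.76, 8.76 and 8.52 in KO livers, against 8.70, 9.20, 8.73 and 8.94 in WT livers. Each group held 1 high value, KO replicate 1 and WT replicate 2, and the groups overlapped. The log2 change was -0.10 ± 0.14 (SE; limma adjusted p = 0.758).

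Igfbp2, a related binding protein whose hepatic transcript is also known to be higher in fasting, measured 10.14, 10.27, 10.61 and 10.31 in KO livers, against 10.21, 10.21, 9.72 and 10.27 in WT livers. KO replicates 2 to 4 exceeded every WT value, replicate 2 by less than 0.01, KO replicate 1 was below 3 of the WT values, and WT replicate 3 stood apart at the low end. The log2 change was 0.23 ± 0.13 (SE; limma adjusted p = 0.432). Without WT replicate 3 it was 0.10, and it did not pass.

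Trib1 encodes a pseudokinase that directs the hepatocyte factor C/EBPα to degradation. It measured 8.85, 8.91, 8.92 and 8.87 in KO livers, against 8.72, 9.02, 8.83 and 8.69 in WT livers. The KO values sat inside the wider WT range, with a log2 change of 0.07 ± 0.08 (SE; limma adjusted p = 0.686).

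Trib3, a stress-induced pseudokinase reported to bind AKT, had a level close to that of the median gene, 5.88. It measured 6.21, 6.21, 6.46 and 6.20 in KO livers, against 6.26, 6.55, 6.40 and 6.34 in WT livers. KO replicates 1, 2 and 4 were below every WT value, and KO replicate 3 was above 3 of the WT values. Trib3 changed by a log2 value of -0.12 ± 0.08 (SE; limma adjusted p = 0.528).

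**Figure D2:**
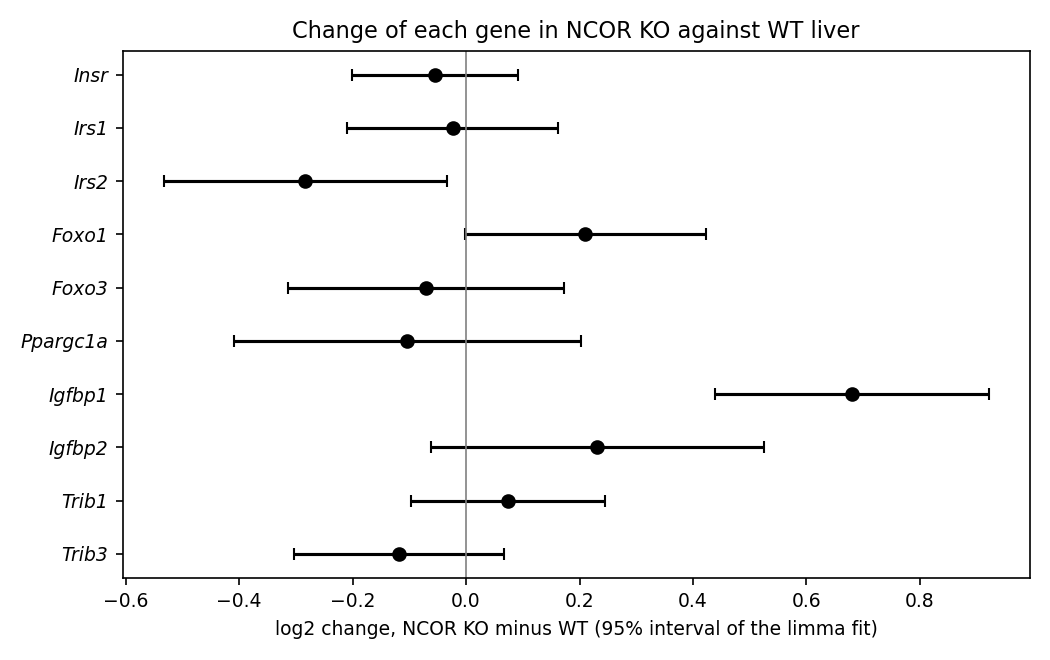
Log2 change of each gene, NCOR KO minus WT, with its 95% interval from the limma fit over 22180 genes (4 arrays per group). The interval of Igfbp1 (0.44 to 0.92) lies apart from 0, that of Irs2 (-0.53 to -0.03) lies below 0 before correction for the number of genes, and the others include 0.

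The change of Igfbp1 was set beside that of each of the other genes. In each array the log2 value of the other gene was subtracted from that of Igfbp1, and the 9 differences were compared between groups by a two-sided exact permutation test over all 70 assignments of the arrays, with Benjamini-Hochberg adjustment over the 9. Igfbp1 was singled out with its rise known, and its change enters all 9 differences, so these p-values are too small and are no independent evidence that it moved unlike the others. Igfbp1 changed by 0.47 (log2) more than Foxo1, 0.61 more than Trib1, 0.70 more than Irs1, 0.73 more than Insr, 0.75 more than Foxo3, 0.78 more than Ppargc1a, 0.80 more than Trib3 and 0.96 more than Irs2. For those 8 the KO and WT differences did not overlap, with an exact p of 0.0286, the smallest that 4 against 4 can give, and an adjusted p of 0.0321. Against Igfbp2 the gap was 0.45 and did not pass (exact p = 0.0857, adjusted p = 0.0857). That gap was 0.60 with an adjusted permutation p of 0.0286 once WT replicate 3 was left out. This was the only pass among 8 fits with 1 array left out. Over these fits the gap to Igfbp2 was 0.30 to 0.60, and the adjusted permutation p reached 0.171. The gap to Foxo1 did not pass with any single KO replicate left out (adjusted permutation p = 0.0643 each time), nor did that to Ppargc1a without WT replicate 2 or 4. Without single KO replicates the gap to Foxo1 was 0.44 to 0.49. Fewer arrays leave fewer assignments, so p moves in larger steps in these fits.

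Within a group, the order of the arrays differed from gene to gene. WT replicate 1 had the highest Irs2 of its group, 0.37 above the group mean, together with the lowest Foxo1 (0.27 below) and the lowest Foxo3 (0.28 below). WT replicate 2 was highest of its group for 5 genes, Insr, Igfbp1, Trib1, Trib3 and Ppargc1a, and KO replicate 3 was highest for 5, Igfbp1, Igfbp2, Trib1, Trib3 and Foxo3. Both of these arrays were lowest of their group for 0 genes. The SD was larger in WT than in KO liver for 7 of the 10 genes.

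**Figure D3:**
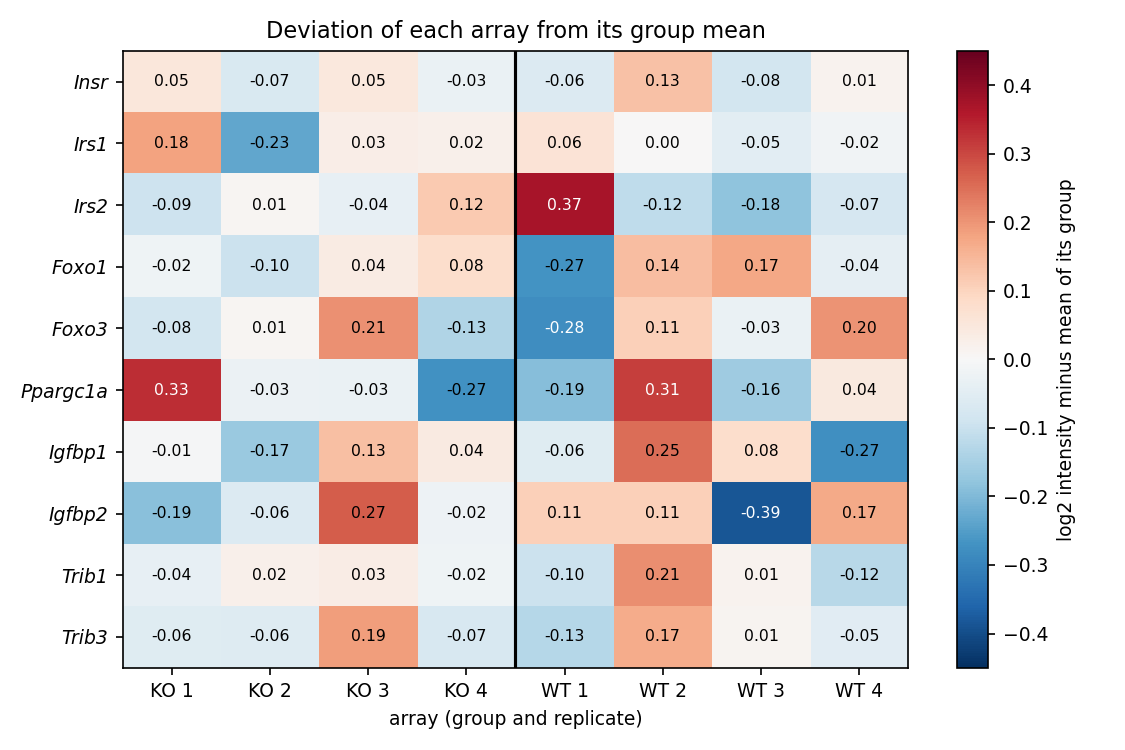
Log2 intensity of each gene in each array minus the mean of that array's group, KO replicates on the left and WT replicates on the right. Red is above and blue below the group mean. WT replicate 1 combines a high Irs2 (0.37) with low Foxo1 (-0.27) and Foxo3 (-0.28), and WT replicate 3 has a low Igfbp2 (-0.39).

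Among other genes known to be raised by hepatic FOXO1, the change of Igfbp1 had 1 companion. Of 25 measured genes of that list 2 rose, Igfbp1 and Pdk4, 0 fell and 23 did not pass, where 1.65% of all genes passed. The median log2 change of the list was 0.01. At an unadjusted p under 0.05 there were 10 of the 25, against 15.9% of all genes, and the groups lay fully apart for 5 genes higher and 2 lower in KO liver. Among those higher were Cited2, a transcriptional coregulator (log2 change 0.60, limma adjusted p = 0.0586), and Pnpla2, the adipose triglyceride lipase gene (0.29, limma adjusted p = 0.0751). Among those lower was Cdkn1b (-0.36, limma adjusted p = 0.0593). Cited2, Pnpla2 and Cdkn1b were picked after their values were seen. Pdk4, which encodes an inhibitory kinase of pyruvate dehydrogenase and is a target of PPARα and the glucocorticoid receptor as well, ranged from 10.45 to 11.41 in KO and from 7.38 to 8.22 in WT liver (log2 change 2.99, limma adjusted p = 1.72e-04). The gluconeogenic genes that define the FOXO1 response in textbooks were bright and did not pass. G6pc, the glucose-6-phosphatase gene, ranged from 12.90 to 13.04 in KO and from 12.79 to 13.09 in WT liver, a log2 change of 0.03 with a 95% interval of -0.15 to 0.21 (limma adjusted p = 0.893). Pck1, which encodes cytosolic PEPCK, averaged 12.88 ± 0.03 in KO and 12.96 ± 0.04 in WT liver (SD, n = 4 each), a log2 change of -0.08 with an interval of -0.20 to 0.04 (limma adjusted p = 0.527). Neither interval reached the lower bound of Igfbp1, 0.44. Among RefSeq promoters, 6 of 19 genes of the list held TGTTTAC or TGTTTTG, G6pc and Igfbp1 among them, against 10.8% of all genes. Other lists held them too, in 6 of 23 genes from the insulin receptor to AKT and 3 of 14 fasting genes of PPARα. Among FOXO factors and regulators it was 1 of 14, and among genes that restrain insulin signalling 0 of 15.

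In the insulin pathway itself no gene passed. Of 24 genes from the receptor to AKT and its substrates 0 rose and 0 fell in the limma fit, with 6 at an unadjusted p under 0.05 against 15.9% of all genes, and 21 of the 24 changes were below 0 at a median of -0.07. Over all genes, dim ones included, 10641 of 22180 changes were below 0. Of the 24 the largest change was that of Tsc1, a brake on mTORC1, at 8.17 ± 0.09 in KO and 8.50 ± 0.19 in WT liver (SD, n = 4 each; log2 change -0.33, limma adjusted p = 0.120). Akt2, the main AKT isoform of liver, was at -0.10 (limma adjusted p = 0.511). Of 17 genes that restrain the pathway, phosphatases, SOCS proteins and the Tribbles genes among them, 0 passed and 2 had an unadjusted p under 0.05, against the same 15.9%. The largest was Socs2, a target of growth hormone, at 9.75 ± 1.35 in KO and 9.13 ± 1.19 in WT liver (SD, n = 4 each; limma adjusted p = 0.704), a spread within each group wider than the gap between them. Of 19 FOXO factors and regulators 0 passed and 3 had an unadjusted p under 0.05, a share near the 15.9% of all genes. Sgk1, a kinase that phosphorylates FOXO proteins, ranged from 7.97 to 8.35 in KO and from 7.60 to 7.88 in WT liver without overlap (log2 change 0.39, limma adjusted p = 0.0768).

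Fasting also acts through CREB, the glucocorticoid receptor and PPARα, and several of their target genes, Igfbp1, Pdk4, G6pc and Pck1 among them, stand in the FOXO1 list as well. Of 25 measured genes driven by CREB and the glucocorticoid receptor 3 rose, Pdk4, Gadd45b and Igfbp1, 0 fell and 22 did not pass, with a median of -0.03. Over all genes 0.816% rose and 0.834% fell. An unadjusted p under 0.05 was seen for 9 of the 25, against 15.9% of all genes. Gadd45b, a stress and growth arrest gene, ranged from 8.69 to 10.08 in KO and from 6.42 to 7.37 in WT liver (log2 change 2.23, limma adjusted p = 0.00790). Tat, a glucocorticoid-induced amino acid enzyme, averaged 13.35 ± 0.04 in KO and 13.29 ± 0.05 in WT liver (SD, n = 4 each; limma adjusted p = 0.667).

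Of 17 fasting genes driven by the nuclear receptor PPARα 5 rose, Pdk4, Vnn1, Acot2, Ehhadh and Plin2, 0 fell and 12 did not pass, with a median of 0.44. The shares over all genes were 0.816% higher and 0.834% lower. An unadjusted p under 0.05 was seen for 9 of the 17, against 15.9% of all genes. Vnn1, a pantetheinase, rose by 1.34 (limma adjusted p = 3.23e-04), the thioesterase gene Acot2 by 1.19 (adjusted p = 0.00435) and Ehhadh, a peroxisomal enzyme, by 1.18 (adjusted p = 8.88e-05) on the log2 scale. Cpt1a, the gate of mitochondrial oxidation, was at -0.13 (limma adjusted p = 0.365). Fgf21, the fasting hepatokine, was dim, at 5.07 in KO and 4.89 in WT liver (limma adjusted p = 0.462).

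Of 16 measured genes that insulin raises in liver 6 rose, 0 fell and 10 did not pass, with a median of 0.42. Over all genes 0.816% rose and 0.834% fell. At an unadjusted p under 0.05 there were 11 of the 16, against 15.9% of all genes. Acacb, an acetyl-CoA carboxylase, ranged from 9.36 to 9.57 in KO and from 8.02 to 8.97 in WT liver (limma adjusted p = 0.0343). On the log2 scale the malic enzyme gene Me1 rose by 0.98 (limma adjusted p = 0.00353), the lipid remodelling gene Pnpla3, dim at 5.55 in WT liver, by 0.96 (adjusted p = 0.0303) and Srebf1, the insulin-responsive lipogenic regulator, by 0.60 (adjusted p = 0.0285). Several of these are also targets of LXR, thyroid hormone or PPARα receptors. The count of 6 was 1 without WT replicate 1 or without KO replicate 2, 2 without KO replicate 1 or 3, and 3 without WT replicate 2 or KO replicate 4. Igfbp1 passed with any 1 of the 8 arrays left out, at limma adjusted p-values of 0.00837 to 0.0498.

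**Figure D4:**
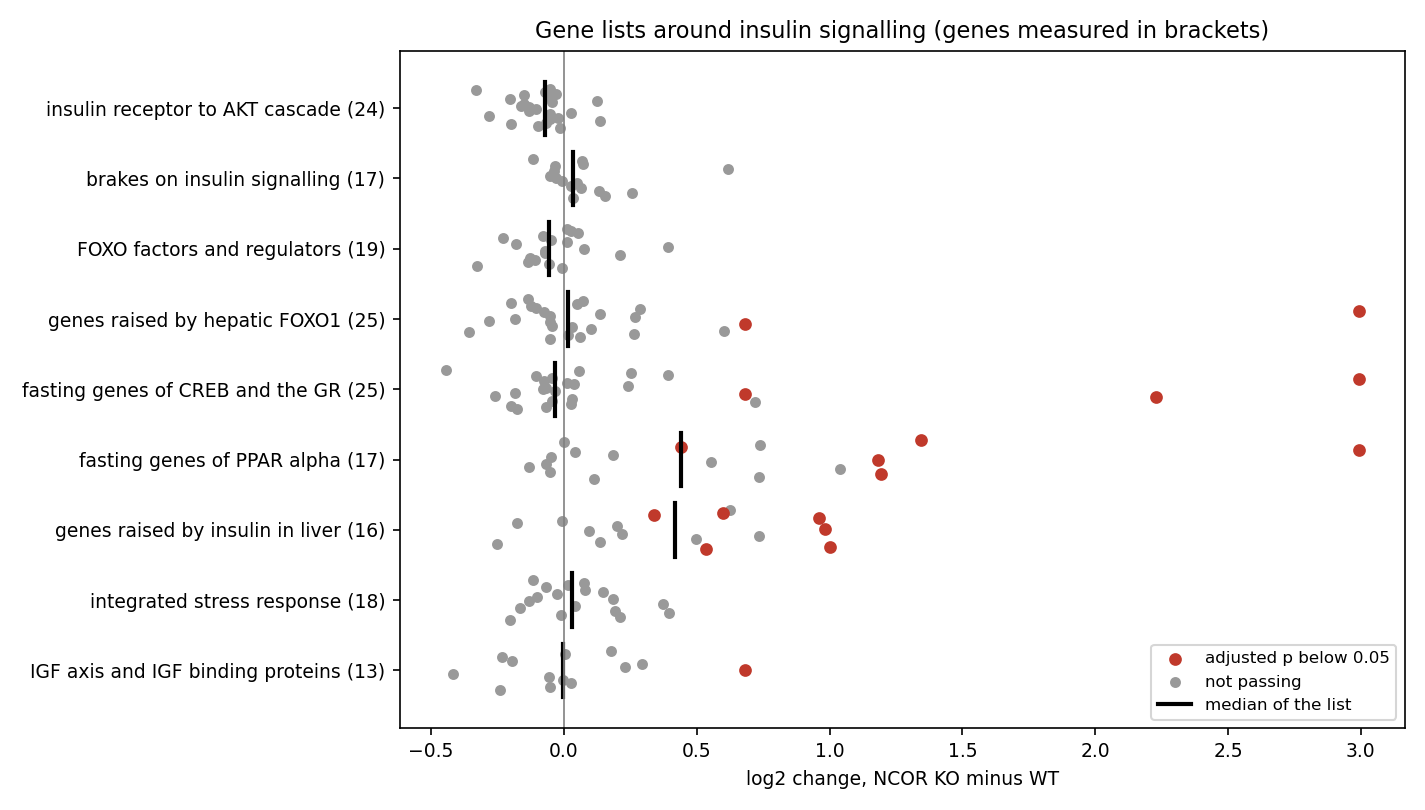
Log2 change, NCOR KO minus WT, of every measured gene in 9 lists; the number measured stands in brackets, GR is the glucocorticoid receptor, and a gene can stand in several lists. Red points passed an adjusted p of 0.05, grey points did not, and black bars are list medians. The medians of the PPARα list (0.44) and of the insulin-raised list (0.42) lie to the right, and that of the FOXO1 list is 0.01.

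Trib3 belongs to the integrated stress response, in which the transcription factor ATF4 drives target genes. Of 18 measured genes of that response 0 passed in the limma fit, 2 had an unadjusted p under 0.05 against 15.9% of all genes, and the median was 0.03. The largest change was that of Atf5, a related factor, at 9.67 ± 0.13 in KO and 9.28 ± 0.23 in WT liver (SD, n = 4 each; log2 change 0.40, limma adjusted p = 0.121). Asns, asparagine synthetase, was at -0.20 (limma adjusted p = 0.623). Of 8 genes of the PGC-1 family and its partners 0 passed and 0 had an unadjusted p under 0.05, the largest change being that of the acetyltransferase gene Kat2a at -0.12 (limma adjusted p = 0.416).

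In the IGF axis Igfbp1 rose and the other 12 of 13 measured genes did not pass, with 5 of the 13 at an unadjusted p under 0.05, against 15.9% of all genes, and a median of -0.0021. The count of 1 was 2 with array median centring, array weights or brighter genes only, 3 with a trend and robust variance, and 0 with the replicate block. Igf1, the growth factor that IGFBP1 binds, averaged 11.60 ± 0.09 in KO and 11.65 ± 0.05 in WT liver (SD, n = 4 each; limma adjusted p = 0.732). The other binding protein genes measured, Igfbp2 to Igfbp7, changed by between -0.23 and 0.30 on the log2 scale.

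The genes whose profile over the 8 arrays lay closest to that of Igfbp1 were Hsdl2, Cyp4a14, Nedd4l, Tjp3 and Hjv, taken from 10462 named genes at or above the median level. Closeness was the root mean square difference of gene-centred log2 values, 0.115 for Hsdl2, a peroxisomal dehydrogenase-like gene, 0.126 for Cyp4a14, an omega-hydroxylase, and up to 0.146 for Hjv, against 0.401 for the median candidate. Because the group difference is part of each profile, this describes genes with a similar size of change and similar scatter.

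Arrays had median intensities of 41.0 to 44.1, and precision throughout is limited by there being 4 in each group. The targeted gene Ncor1 was not analysed here, so the labels were not checked against it. KO replicate 1 and WT replicate 2 lay lowest on the second principal component, which held 20.4% of the variance, and without both the log2 change of Igfbp1 was 0.77 (limma adjusted p = 0.0209). For hepatocyte markers the log2 of the summed intensity was 16.26 to 16.29 in KO and 16.29 to 16.32 in WT liver. Of 11 measured, 4 had KO fully below WT and 0 fully above, against 5.49% and 4.9% of all genes. An unadjusted p under 0.05 was seen for 3 of the 11, against 15.9% of all genes. Past the threshold 1 fell, Cebpa (-0.35, limma adjusted p = 0.0158), a call lost in 5 of 16 alternative fits. Among these were the fits without WT replicate 1 or 4 and without KO replicate 2 or 3. Endothelial markers had a summed level (log2) of 12.86 to 13.08 in KO and 12.63 to 12.89 in WT liver, with 10 of 10 changes above 0. Of these 6 had an unadjusted p under 0.05 and 3 had KO fully above WT, against 15.9% and 4.9% of all genes. Past the threshold there was 1, Robo4 (0.35, limma adjusted p = 0.0429). Cholangiocyte markers reached 8.53 to 8.76 in KO and 8.31 to 8.37 in WT liver. Of 5 measured, 3 had an unadjusted p under 0.05, against the same 15.9%, and 1 passed the threshold, Epcam (0.41, limma adjusted p = 0.0452). The calls of Robo4 and Epcam were each lost in 10 of 16 alternative fits. Kupffer cell and stellate cell markers had 0 of 10 and 0 of 9 past the threshold, also 0 at an unadjusted p under 0.05, with Vsig4 at 0.33 (limma adjusted p = 0.588) and Lrat at -0.36 (adjusted p = 0.388) as the largest. The part of hepatocytes, endothelial cells and cholangiocytes in the values of Igfbp1 and of the lists was not tested. In whole liver fewer cells of a type and less RNA per cell cannot be told apart.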

How the data were processed

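Total RNA of 8 livers was hybridised, and the authors deposited probe set intensities on a linear scale. RMA and Partek are named per the submitters' processing notes, with no role or version, and the genome build is not given in the sources used here. The log2 of each deposited intensity was taken with no further normalization. Of 41345 probe sets, 16010 had no assigned gene and 1814 had several, and were left out. The 23521 with 1 gene (GEO's platform annotation, 23328 matched to RefSeq on GRCm38.p6 by gene identifier) gave 22180 genes at the brightest probe set each, with no filter on dim ones.

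The test was that of limma 3.58.1 under R 4.3.3, with lmFit and eBayes on an intercept and the group, with Benjamini-Hochberg adjustment over all genes and a threshold of 0.05. The fit was tested on simulated data. The 10 genes and the 16 lists, the 10 genes included as one, were chosen with earlier results of these data known. Of their 223 symbols 208 were measured. From each list up to 4 genes past the threshold with the largest change were named, or the largest where none passed, plus a fixed set of 12 genes, of which those measured are given. The motif counts per list were added after values were seen. Alternatives were other array scalings, a trend and robust variance, array weights, only brighter genes, other probe set rules, a replicate block and leaving out each array. Same-numbered KO and WT arrays deviated together by a correlation of -0.09 to 0.02, so the numbers were not taken as pairs. Figures were drawn with matplotlib 3.10.9.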

Additional observations from a re-analysis of the deposited data

Results flagged for a closer look

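In 2 of the 20 sets of 4 values examined, 10 genes in 2 groups, 1 array stood apart from the other 3 by more than Dixon's critical ratio of 0.829, where chance gives about 1 in 20. Trib3 in KO replicate 3 was at a log2 intensity of 6.46, while the other KO livers lay at 6.20 to 6.21 (ratio 0.935). Igfbp2 in WT replicate 3 was at 9.72, while the other WT livers lay at 10.21 to 10.27 (ratio 0.889). KO replicate 3 also had the highest Igfbp1, Igfbp2, Trib1 and Foxo3 of its group.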

How the results depend on the processing

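Igfbp1 kept its direction in all 17 alternatives run and passed the threshold in 16, with log2 changes of 0.59 to 0.77. The exception was the fit with the replicate number as a block (limma adjusted p = 0.0556), where 0 of the 10 genes and 155 of all genes passed. The labels do not say whether the replicate numbers mark pairs. A trend and robust variance, brighter genes only and the replicate block leave the size of a change as it is. Igfbp1 has 1 probe set, so the probe set rules also leave its change at 0.68. The highest adjusted p with 1 array left out was 0.0498, without WT replicate 1. None of the other 9 genes passed in any alternative run, and their direction held except for Irs1, whose change lay between -0.08 and 0.05. The count of all genes past the threshold was 366. It was 551 among brighter genes only, 202 without KO replicate 1 and WT replicate 2 (chosen after seeing the data), 88 at a threshold of 0.01 and 807 at 0.1, and 120 to 297 with single arrays left out. Centring each array on its median gave 147 higher and 383 lower genes, against 181 and 185. The count of hepatic FOXO1 genes past the threshold, 2, was 4 with array weights, 4 with a trend and robust variance and 5 among brighter genes. With single arrays left out the gap between Igfbp1 and the other genes ranged from 0.39 to 0.54 for Foxo1, from 0.30 to 0.60 for Igfbp2 and from 0.68 to 0.90 for Ppargc1a. The cause of these differences was not tested. Dim probe sets carry little signal over background, which limits what Trib3, Fgf21 and Pnpla3 can show.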
